A study of Mus musculus with 8 samples.

Results

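The cells described here were the 10% of B16F10 melanoma cells with the highest score for 6 transcripts of DNA replication and its histones, in 8 mouse tumours profiled by droplet single-cell RNA-seq. Of 41925 barcodes in the 8 libraries, 28411 had between 200 and 5000 detected genes and at most 7.5% of their UMIs (unique molecular identifiers, 1 per captured transcript) from mitochondrial genes, and 23550 of those had at least 4000 UMIs. In 22783 of these, Mlana, Pmel, Dct, Tyr and Tyrp1, genes of the pigment cell lineage, made up at least 0.3% of all UMIs, and these were the eligible melanoma cells. The mitochondrial limit alone kept out 8141 barcodes and the upper limit on genes alone 497. The score was the mean of ln(1 + count per 10000 UMIs) over Rrm2, Pclaf, Tk1, Hist1h1e, Hist1h2ae and Clspn, and the top 10% by that score held 2279 cells. They had been put forward as cells in mid S phase, but the values below do not place them within S phase, so they are called S-score cells after the rule that chose them. They were chosen by these measured values, so the height of the 6 genes, and every other difference between S-score cells and the 20504 other eligible cells, is given as a description with no test.

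B16F10 is a transplantable melanoma line of C57BL/6 origin, and the cells were injected under the skin of the flank. All 8 hosts carried Rosa26::CreERT2, a tamoxifen-dependent Cre made in every tissue, and all received tamoxifen. The 4 Atf4wt/wt hosts kept both copies of Atf4, and the 4 Atf4D/D hosts had carried floxed Atf4, from which the excision removes the floxed exons. The paper describes this deletion as efficient but incomplete. The tumour cells brought their own Atf4, so the comparison is of the same melanoma line in hosts with intact and with excised Atf4. Atf4 in melanoma cells does not check the host labels. Tumours were taken at 300 mm3, with 1 library each, and the labels give an age of 12 weeks; 2 of the Atf4wt/wt hosts and 1 of the Atf4D/D hosts were female. The libraries held between 37283598 and 74942137 UMIs in all, and pairs of libraries shared between 2 and 14 barcodes. No shared barcode was an S-score cell in both libraries.

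S phase is the part of the cell cycle in which DNA is copied once. In late G1 the E2F factors switch on genes for origin licensing, the nucleotide supply and the fork itself, and histone genes of the replication-dependent clusters are transcribed at a high rate only while DNA is being made. Most messages of those histone genes end in a stem-loop without a poly(A) tail, so a library primed on poly(A) captures only a part of them. Rrm2 encodes the small subunit of ribonucleotide reductase, Tk1 the cytosolic thymidine kinase, Pclaf a factor bound to the PCNA clamp, Clspn the fork-bound adaptor of the checkpoint kinase Chk1, Hist1h1e a linker histone and Hist1h2ae a core histone H2A.

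The promoter windows of the 4 score genes that are not histones are shown because these genes were selected to be high together. Each window runs from 250 bases before to 50 bases after the gene's start (RefSeq, GRCm38.p6), and capitals mark CCAAT, the letters of an NF-Y box, and TTTNNCGC, the letters of an E2F site, on either strand.
Rrm2, chr12:24708004-24708303, plus strand: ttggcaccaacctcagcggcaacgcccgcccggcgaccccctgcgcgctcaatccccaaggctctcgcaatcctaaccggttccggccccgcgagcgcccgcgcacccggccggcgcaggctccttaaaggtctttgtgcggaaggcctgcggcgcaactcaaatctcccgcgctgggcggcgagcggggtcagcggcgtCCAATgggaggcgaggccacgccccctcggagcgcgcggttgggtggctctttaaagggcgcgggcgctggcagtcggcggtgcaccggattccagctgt
Pclaf, chr9:65890073-65890372, plus strand: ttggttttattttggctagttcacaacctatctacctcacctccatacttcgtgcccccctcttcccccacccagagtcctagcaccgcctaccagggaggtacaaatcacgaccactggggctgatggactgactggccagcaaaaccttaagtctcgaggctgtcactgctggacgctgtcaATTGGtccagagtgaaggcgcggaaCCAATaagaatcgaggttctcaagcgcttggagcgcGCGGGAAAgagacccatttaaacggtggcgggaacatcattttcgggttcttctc
Tk1, chr11:117825965-117826264, minus strand: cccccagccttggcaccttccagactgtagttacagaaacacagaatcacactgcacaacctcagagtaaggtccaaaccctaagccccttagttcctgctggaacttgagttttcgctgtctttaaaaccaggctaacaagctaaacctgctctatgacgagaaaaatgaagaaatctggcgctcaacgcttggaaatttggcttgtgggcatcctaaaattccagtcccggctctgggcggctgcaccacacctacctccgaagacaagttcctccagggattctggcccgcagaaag
Clspn, chr4:126556730-126557029, plus strand: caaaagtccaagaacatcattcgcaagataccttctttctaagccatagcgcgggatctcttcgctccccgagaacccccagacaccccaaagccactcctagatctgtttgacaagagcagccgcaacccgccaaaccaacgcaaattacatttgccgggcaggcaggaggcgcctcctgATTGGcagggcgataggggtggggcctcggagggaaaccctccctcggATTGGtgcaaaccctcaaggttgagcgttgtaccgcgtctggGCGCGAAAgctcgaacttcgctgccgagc
CCAAT was found in 5 of the 6 score genes' windows, at 1 place in Rrm2 and at 2 in each of Pclaf and Clspn, and in 37.4% of all 32851 promoter windows of this length. TTTNNCGC was found in 2 of the 6, Pclaf and Clspn, and in 5.17% of all windows. Neither was present in the Tk1 window. The matches did not overlap each other and are a description of letters, not of binding.

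Most S-score cells held transcripts of at least 5 of the 6 score genes. All 6 were detected in 1257 cells (55.2%), 5 of them in 889 (39.0%), 4 in 131 and 3 in 2. Rrm2 had a UMI in 99.6% of S-score cells, 46.8% of other melanoma cells and 7.82% of 614 barcodes with at least 0.3% of their UMIs from macrophage markers, at median depths of 13668, 10143.5 and 1584.5 UMIs. Rrm2 averaged 528 ± 55.0 CPM (UMIs of a gene per 1000000 UMIs, from 3′ tags, so levels do not scale with gene length, SD over 8 tumours) in S-score cells and 127 ± 22.4 CPM in other melanoma cells. Hist1h2ae had the largest ratio of the 6, 161 ± 47.5 against 16.1 ± 2.72 CPM, a log2 ratio of 3.26 ± 0.18 (SD, n = 8), and the others had log2 ratios from 2.06 in Rrm2 to 2.81 in Hist1h1e.

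The score is a gradient, and its boundary ran through a dense range. The lowest member scored 1.06, the median member 1.22 and the median eligible cell 0.21, while 6670 eligible cells (29.3%) had none of the 6 transcripts. Within 0.1 of the boundary lay 756 S-score cells (33.2%) and 782 other cells. In the 200 cells just inside, Rrm2 was at 436.5 CPM, and in the 200 just outside it was at 443 CPM. Clspn was at 95.8 and 87.7 CPM in these cells, and Hist1h1e at 194 and 189 CPM.

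Most measured replication genes were higher in S-score cells. All 23 genes of origin licensing and firing, all 29 of the replication fork and all 4 of DNA methylation upkeep had a higher CPM in S-score than in other melanoma cells in each of the 8 tumours, as did 13 of 14 genes of nucleotide supply, 19 of 20 of the replication checkpoint and repair and 12 of 13 of histone supply. Among all 11596 genes with at least 200 UMIs, 20.2% were higher and 20.2% were lower in all 8 tumours, and nothing is read from the counts. Summed CPM was 2.52-fold higher for licensing and firing, 2.31-fold for the fork, 2.12-fold for nucleotide supply and 1.62-fold for histone supply. The plot of gene groups by tumour shows that the 8 tumours lay close together in each.

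**Figure D1:**
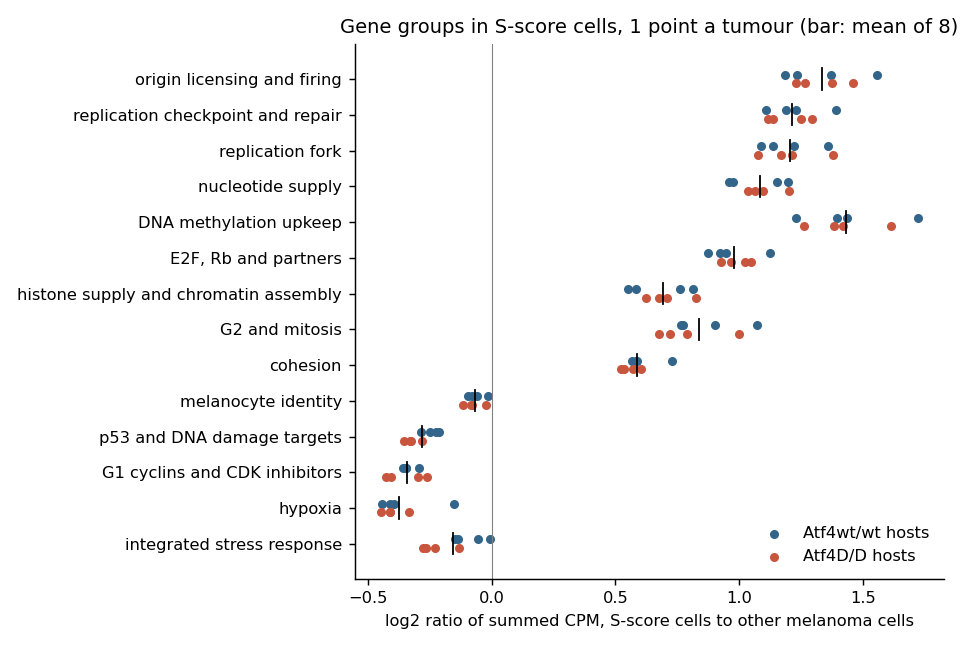
Log2 ratio of the summed CPM of each gene group in S-score cells to that in the other eligible melanoma cells (x axis), 1 point per tumour, blue for Atf4wt/wt and red for Atf4D/D hosts, with a black bar at the mean of 8. Licensing and firing, the fork, checkpoint and repair, and nucleotide supply have means above 1, and histone supply (0.69) and cohesion (0.59) lie lower. Below 0 in all 8 tumours are hypoxia (-0.37), G1 cyclins with CDK inhibitors (-0.34), p53 targets (-0.28) and the integrated stress response (-0.16). Melanocyte identity is near 0 (-0.07), but also below it in all 8.

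In nucleotide supply, Dut, which removes dUTP, was the most abundant of the group at 443 ± 11.9 CPM in S-score and 175 ± 14.2 CPM in other cells, and Tyms, thymidylate synthase, was at 207 ± 11.9 against 87.8 ± 11.0 CPM. The exception was Rrm2b, the ribonucleotide reductase subunit induced by p53 and used outside S phase, which was lower in all 8 tumours (18.9 ± 1.91 against 23.1 ± 2.74 CPM). The large subunit shared by both enzymes, Rrm1, was higher (245 ± 14.2 against 103 ± 14.6 CPM).

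Among the licensing and firing genes, the log2 ratio was 1.80 for Cdc45, the helicase activator, 1.72 for Ccne1 and 2.17 for Ccne2, the E cyclins, and 1.71 for Cdc6, the licensing loader. The 6 subunits of the MCM helicase lay between 1.25 (Mcm2) and 1.58 (Mcm5). Gmnn, the inhibitor that blocks relicensing, was higher as well, at 125 ± 8.66 against 44.8 ± 5.80 CPM, and Cdt1, the loader it binds, was at 101 ± 7.86 against 41.5 ± 6.36 CPM. Fork genes with high ratios were Dscc1, a subunit of the clamp loader that acts in cohesion (1.94), Lig1, which joins Okazaki fragments (1.60), and Prim1, the primase (1.56), and Pcna, the clamp, was at 252 ± 22.4 against 95.6 ± 7.89 CPM.

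The 15 genes with the highest ratio outside the score, of 3143 with at least 50 CPM in S-score cells, included Hist2h2ac, Esco2, Fbxo5, Dscc1, Hist1h4d, Brip1, Cdc45, Ncapg2, Ccne1, Uhrf1, Aurkb, Mcm10 and Chaf1b. Esco2, the acetyltransferase that locks cohesin on new sister chromatids, was at 66.1, 61.1, 61.8 and 51.0 CPM in S-score cells of the Atf4wt/wt tumours and at 57.0, 61.3, 62.9 and 66.3 CPM in those of the Atf4D/D tumours, and between 11.0 and 14.1 CPM in other cells, a log2 ratio of 2.30 ± 0.19 (SD, n = 8). No tumour's S-score value came near another's value for other cells. Fbxo5, which encodes the inhibitor Emi1 that keeps the APC/C ligase silent through S and G2, was at 96.8 ± 8.57 against 19.5 ± 2.38 CPM. Uhrf1, which brings Dnmt1 to half-methylated DNA, was at 220 ± 19.9 against 67.9 ± 11.3 CPM. The rest of the cohesin list moved less: the ring subunits Smc1a and Smc3 had log2 ratios of 0.59 and 0.58, and Rad21 0.26 with 7 of 8 tumours higher. Of the 15 genes, 10 had a matched promoter window, of which 8 held CCAAT or TTTNNCGC, against 40.5% of all windows; for the 10 genes with the lowest ratio it was 4 of 6 matched.

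The E2F family differed by member. The activators E2f1 and E2f2 had log2 ratios of 1.53 and 2.11, the late repressors E2f7 and E2f8 1.99 and 2.08, and Mybl2, which works with the MuvB complex, 1.99. E2f4, a partner of the pocket proteins in quiescence, had a log2 ratio of 0.32, Rbl2, one of those pocket proteins, -0.01 with 4 of 8 tumours higher, and E2f5 -0.43, lower in all 8. Of the 15 genes listed, 12 were higher in all 8 tumours and E2f5 was lower in all 8.

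Genes of G2 and mitosis did not move as 1 block. Of 26, 21 were higher and 3 lower in all 8 tumours. Aurkb, a mitotic kinase of the chromosomal passenger complex, was at 122 ± 6.34 against 37.6 ± 5.22 CPM, Top2a, topoisomerase II alpha, at 642 ± 69.6 against 228 ± 31.2 CPM, and Cdk1 at 341 ± 14.0 against 153 ± 16.7 CPM. The 3 that were lower were Cenpa, the centromeric histone H3 variant, with 81.4 ± 9.50 against 111 ± 14.0 CPM, Ccnb2, a B cyclin, with 68.5 ± 4.27 against 88.3 ± 11.2 CPM, and Cdc20, the APC/C activator of metaphase, with 44.3 ± 6.05 against 56.7 ± 6.68 CPM. Ube2c, the E2 enzyme of the APC/C, was level at 183 ± 13.3 against 189 ± 20.7 CPM and was higher in 3 of 8 tumours. Of 9 measured G1 cyclins and CDK inhibitors, 4 were lower and 3 higher in all 8 tumours. Ccnd2, a D cyclin, was at 318 ± 39.7 against 512 ± 51.4 CPM, and Cdkn1b, the inhibitor p27, at 47.1 ± 4.45 against 64.9 ± 6.99 CPM, both lower in all 8 tumours. The higher ones were Ccnd3, another D cyclin, at 67.7 ± 10.8 against 55.0 ± 5.43 CPM, and the inhibitors of Cdk4 and Cdk6 Cdkn2c (51.4 ± 5.57 against 36.2 ± 2.43 CPM) and Cdkn2d (64.5 ± 7.92 against 41.4 ± 3.57 CPM). Cdkn2a and Cdkn2b had 0 UMIs in S-score cells, which allows up to 0.0963 CPM (3 UMIs over all S-score cells).

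Most clustered histone genes outside the score were higher in S-score cells too. Their summed CPM was 427 ± 117 in S-score and 195 ± 28.8 in other cells, a log2 ratio of 1.10 ± 0.28 (SD, n = 8), or of 0.79 when cells were selected without the 2 histone genes in the score, and of 29 genes with at least 200 UMIs 21 were higher and 2 lower in all 8 tumours. By class, summed CPM was 3.80-fold higher for H3, 2.79-fold for H4, 2.68-fold for H2A and 2.49-fold for H1, but 1.13-fold for H2B. The H2B sum was carried by Hist1h2bc, which was lower in all 8 tumours (37.4 ± 9.90 against 60.9 ± 11.2 CPM), while Hist2h2bb was at 18.7 ± 8.50 against 3.76 ± 1.20 CPM. Hist1h1d, a linker histone, had a log2 ratio of 2.67 ± 0.34 (SD, n = 8). Genes of these clusters are near-identical in their coding part, and how well reads were split among them was not tested. Slbp, which binds the stem-loop of histone messages, was at 167 ± 12.6 against 67.4 ± 5.92 CPM, and the chaperone gene Nasp at 288 ± 16.5 against 131 ± 13.3 CPM.

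Along the score, which holds 2 histone genes itself, the histones outside it stayed flat where other groups already climbed. Summed CPM of the other clustered histones was 174, 176, 184.5, 183, 167 and 202.5 over the first 6 bins of rising score, then 298 in the ninth decile and 427 in S-score cells. Licensing and firing genes rose at each step, from 335 in the 6835 lowest cells to 1355 in the eighth decile and 2160 in S-score cells. The 6 genes of a G2/M score (Ccnb1, Cenpf, Hmmr, Ube2c, Top2a and Aurka) peaked in the eighth decile at 1513 CPM and were at 1235 CPM in S-score cells. Hypoxia genes went from 6760 CPM in the lowest bin to 4398 CPM. The bins also differ in depth, with a median of 8621 UMIs in the lowest and 13668 in S-score cells, and its part in these profiles was not tested.

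**Figure D2:**
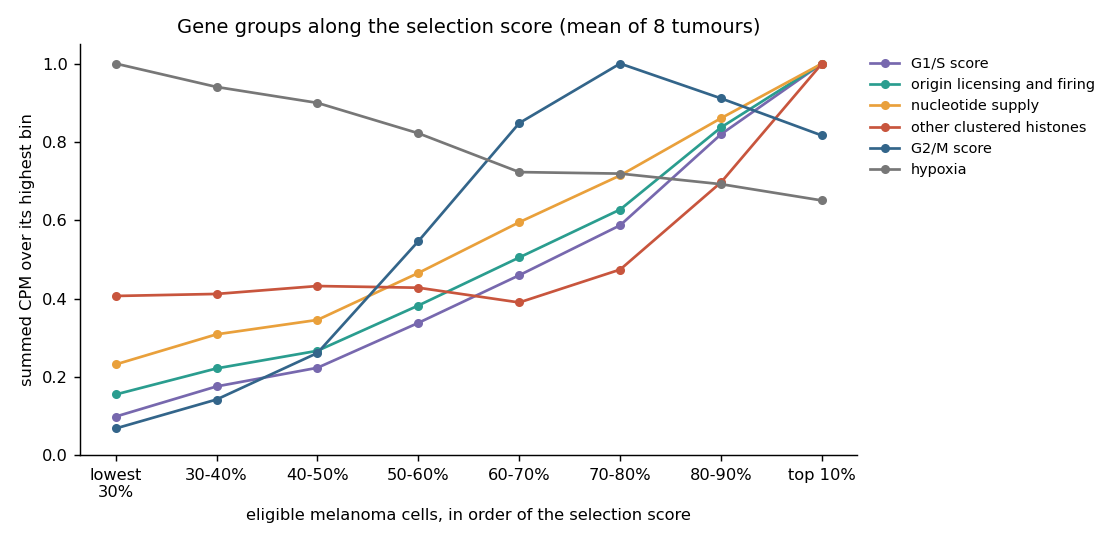
Summed CPM of 6 gene groups (y axis, mean of 8 tumours, each divided by its highest bin) over eligible melanoma cells in order of the selection score (x axis), where cells without any score transcript share the lowest bin. Clustered histones stay between 167 and 202.5 CPM up to the eighth decile and reach 427 CPM in the top 10%, whereas the G2/M score genes peak earlier, at 1513 CPM.

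Ranking the same cells by 6 G1/S genes (Mcm3, Mcm5, Mcm6, Ccne2, Cdc6 and Gins2) and by the 6 G2/M genes gave 2 more groups of 2279 cells. S-score cells shared 925 cells (40.6% of each) with the G1/S group and 241 (10.6% of each) with the G2/M group, the latter pair shared 32 (1.40%), and 1130 S-score cells (49.6%) were in neither. S-score cells that were also in the G1/S group had a summed licensing level of 2684 ± 71.9 CPM and histones at 391 ± 96.7 CPM. Those also in the G2/M group had licensing genes at 1455 ± 107 CPM and histones at 544.5 ± 128 CPM, and those in neither lay between, at 1890 ± 56.9 and 432 ± 130 CPM. Cells of the G1/S group outside the selection had a licensing level of 2414 ± 88.4 CPM and histones at 191 ± 27.6 CPM, near the 188 ± 26.8 CPM of cells in none of the 3 groups. All 6 genes of the G1/S score are on the licensing list, so licensing levels inside against outside the G1/S group were in part set by the selection. The score that kept the last cells out holds 2 histone genes, so their histone level is in part set by the rule too, and nothing is read from either. The markers of the label chose the cells and so do not check it. The other replication genes are no check either, since their lists went both ways. Fork genes (2593 against 2511 CPM) and nucleotide supply (1831 against 1688 CPM) were higher in S-score cells than in the G1/S group. Checkpoint and repair (1024.5 against 1039 CPM) and DNA methylation upkeep (610 against 689 CPM) were lower. Genes of G2 and mitosis were high in S-score cells as well (4540 against 2551.5 CPM in other cells). Whether a cell was in early, middle or late S phase cannot be told from these libraries. The overlap with the G2/M group moved with the threshold, the depth setting and the score. By tumour, 5.05 to 13.9% of S-score cells and 8.597 to 11.23% of other melanoma cells were in that group. With the top 5% by each score it was 0.893 to 3.80% against 4.13 to 6.03%, and with the top 20% 35.8 to 45.3% against 11.7 to 16.5%. With the score without the 2 histone genes it was 3.16 to 8.04% against 8.68 to 11.7%. At the top 10%, with cells thinned to 4000 UMIs, it was 9.80 to 18.6% against 8.03 to 11.1%, higher in every tumour. With at least 8000 UMIs per cell it was 2.17 to 9.09% against 8.28 to 13.0%, lower in every tumour.

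Most hypoxia genes were lower in S-score cells. Of 16 hypoxia genes, 14 were lower and none higher in all 8 tumours, and 3 of the 10 genes with the lowest ratio were on this list: Ero1l, the ER oxidase (171 ± 28.0 against 472 ± 100.3 CPM), Car9, a carbonic anhydrase (61.9 ± 18.2 against 151 ± 50.6 CPM), and Bnip3, a mitophagy receptor (122 ± 43.6 against 261 ± 92.4 CPM). Hk2, hexokinase 2, which was not on the list, was at 75.7 ± 11.4 against 153 ± 32.7 CPM. Between tumours, Ero1l in S-score cells ran from 127 to 206 CPM, and it was below the same tumour's other cells in all 8. Ldha, the most abundant of the list, hardly differed, at a log2 ratio of -0.09 ± 0.08 (SD, n = 8). The other low genes were Nupr1, Atf5, H2-K1, Hmox1, S100b and Smim14.

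In the integrated stress response, the pathway through which Atf4 acts, the genes divided. Of 14, 7 were lower and 2 higher in all 8 tumours. The transcription factors Atf5 (63.0 ± 32.4 against 124 ± 44.8 CPM), Ddit3 (91.7 ± 31.3 against 137 ± 39.1 CPM) and Atf3 (35.7 ± 11.8 against 56.6 ± 11.8 CPM) were lower, as was Asns, asparagine synthetase (230 ± 66.3 against 302 ± 65.9 CPM). Shmt2 and Psat1, enzymes of serine and one-carbon metabolism, were higher, at 138 ± 26.1 against 107 ± 19.8 CPM and 122 ± 21.8 against 107 ± 18.8 CPM. Atf4 itself was at 335 ± 64.0 against 367 ± 61.8 CPM and lower in 7 of 8 tumours. Of 10 measured p53 target genes, 7 were lower in all 8 tumours, among them Cdkn1a, the inhibitor p21 (126 ± 20.8 against 159 ± 19.5 CPM).

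Melanocyte identity was close to level, with a summed log2 ratio of -0.07 ± 0.03 (SD, n = 8), and the 5 genes of the eligibility rule had -0.08 ± 0.04. Markers of host cells were few in S-score cells. Macrophage markers summed to 8.95 ± 3.00 CPM against 17.6 ± 10.1 CPM in other cells, with Cd68 the most abundant and Ptprc at 4 UMIs in all, and the 7 T and NK cell markers had 3 UMIs in all. Fibroblast markers summed to 365 ± 67.8 against 529 ± 96.8 CPM, of which Sparc, which melanoma cells also express, made 339 CPM, while Col1a1 was at 6.59 and Dcn at 1.51 CPM. Endothelial markers were at 4.26 ± 1.38 against 2.54 ± 0.47 CPM, mostly Plvap, with Cdh5 at 0 UMIs. Erythroid markers were at 26.4 CPM in S-score cells of Atf4D/D replicate 1 and at most 0.20 CPM in the other 7 tumours. The part of doublets or free RNA in these levels was not tested, and no doublet caller was run.

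Turning to the host genotype, S-score cells made up 9.93, 12.0, 11.6 and 8.81% of eligible melanoma cells in the Atf4wt/wt tumours (replicates 1 to 4) and 9.49, 7.95, 9.75 and 10.9% in the Atf4D/D tumours. The groups overlapped, at 10.6 ± 1.49% and 9.52 ± 1.22% (SD, n = 4), and did not differ past the threshold (exact two-sided permutation test over 70 assignments, p = 0.286, 0.429 adjusted over 3 shares, where the smallest p possible is 0.0286). The G1/S group made up 8.96 ± 1.01% and 10.8 ± 2.33% (exact permutation p = 0.286) and the G2/M group 9.96 ± 0.97% and 9.89 ± 1.24% (exact permutation p = 0.971). The log2 ratio of the S-score to the G1/S share was -0.06, 0.54, 0.51 and -0.04 in Atf4wt/wt tumours and -0.11, -0.03, -0.20 and -0.33 in Atf4D/D tumours. Its group means differed by -0.40, and the test did not pass (exact permutation p = 0.0857, 0.171 adjusted over 2 ratios). Under 9 alternatives the difference ran from -0.52 to -0.15, the smallest with the score without the 2 histone genes, and the adjusted exact permutation p from 0.0571 to 0.400. With that score, the direction for the S-score share turned, to 0.87 percentage points higher in Atf4D/D tumours (exact permutation p = 0.514). Each tumour gave between 215 and 467 S-score cells, and the counting error this brings is part of the spread between tumours.

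**Figure D3:**
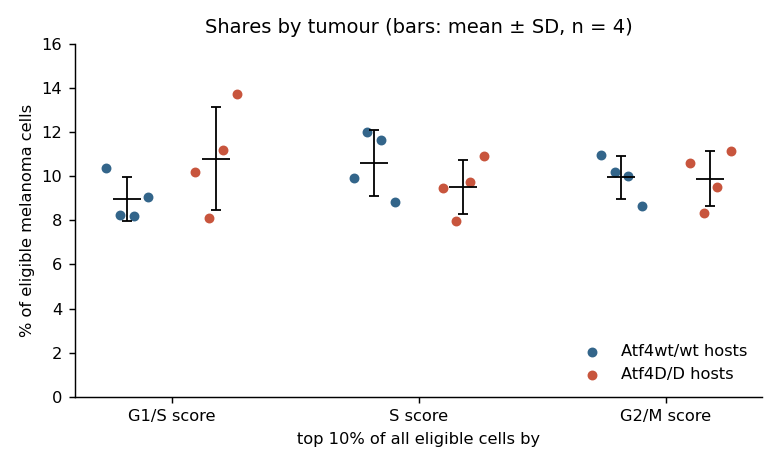
Share of eligible melanoma cells (y axis, %) in the top 10% by each of 3 scores (x axis), 1 point per tumour, blue for Atf4wt/wt and red for Atf4D/D hosts, with black bars for mean ± SD (n = 4). The 2 genotypes overlap for each score, and S-score shares run from 7.95 to 12.0%.

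Depth did not differ past the threshold between hosts. Median UMIs per S-score cell were 12009, 14924, 14311 and 11795 in Atf4wt/wt and 13811, 12811, 15726 and 14595 in Atf4D/D tumours (exact permutation p = 0.371, 0.446 adjusted over 6 measures), each above the same tumour's other melanoma cells, which had medians between 9163 and 11382. Of S-score cells, 37.8 ± 2.90% (SD, n = 4) in Atf4wt/wt and 43.7 ± 5.66% in Atf4D/D tumours were also in the G1/S group (exact permutation p = 0.114), and 11.4 ± 3.36% and 8.90 ± 2.61% in the G2/M group (exact permutation p = 0.314). Summed histones outside the score were at 412.5, 506.5, 683 and 335 CPM in Atf4wt/wt and at 346, 358, 386 and 388 CPM in Atf4D/D S-score cells (exact permutation p = 0.171, 0.343 adjusted). Atf4wt/wt replicates 1 to 3 were above every Atf4D/D tumour and replicate 4 was below all of them. In the same tumours Gm42418, a transcript annotated over ribosomal RNA sequence, was at 988, 1252, 1507 and 599.8 CPM in Atf4wt/wt S-score cells, and at 605, 561, 552 and 528 CPM in Atf4D/D ones. Its part in the histone levels was not tested.

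**Figure D4:**
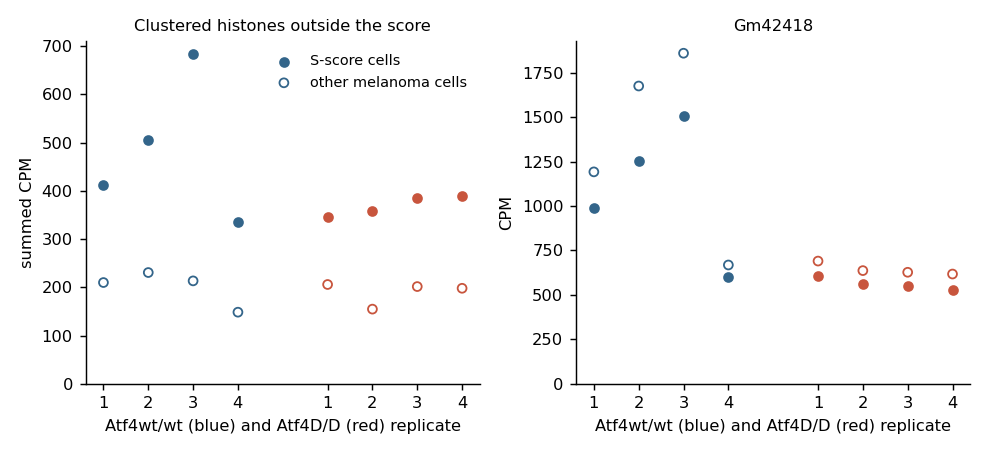
Summed CPM of clustered histones outside the score (left, y axis) and CPM of Gm42418 (right, y axis) in each tumour (x axis, replicate number, blue for Atf4wt/wt and red for Atf4D/D hosts), filled for S-score cells and open for other melanoma cells. Both are highest in Atf4wt/wt replicates 2 and 3, and S-score cells have more histone message than other cells of the same tumour in all 8.

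Across genes, 6 of 10021 tested (0.0599%) differed between hosts in S-score cells at an adjusted p under 0.05 (edgeR quasi-likelihood test on UMIs summed per tumour, Benjamini-Hochberg), 2 higher and 4 lower in Atf4D/D tumours, and 896 had an unadjusted p under 0.05. Pde10a, a phosphodiesterase that breaks down cAMP and cGMP (chr17:8525372-8986648), was at 154, 93.5, 107 and 127 CPM in Atf4wt/wt and 69.5, 52.0, 58.6 and 62.5 CPM in Atf4D/D S-score cells. The groups did not overlap, and the log2 fold change was -1.02 ± 0.13 (SE, adjusted p = 0.00458). Nr4a3, an immediate-early orphan nuclear receptor (chr4:48045153-48086447), was at 70.5, 43.6, 53.9 and 51.4 CPM in Atf4wt/wt and 29.3, 31.9, 28.3 and 34.1 CPM in Atf4D/D tumours. It too was separate in all 8, with a log2 fold change of -0.87 ± 0.13 (SE, adjusted p = 0.0190), but it did not pass when cells were selected without the 2 histone genes in the score (-0.74, adjusted p = 0.0856). Its relatives Nr4a1 and Nr4a2, looked up after its value was seen, had log2 fold changes of -0.50 (adjusted p = 0.214) and -1.14 (adjusted p = 0.0812). Of all genes tested, 2.41% had all 4 Atf4D/D tumours below and 2.43% above all 4 Atf4wt/wt tumours.

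The other called genes belong to families of similar copies, and how reads divide among these was not tested. Hist1h4d, a histone H4 gene (chr13:23581598-23582735), was at 76.1, 101.6, 135 and 53.8 CPM in Atf4wt/wt and 38.9, 37.4, 36.2 and 44.6 CPM in Atf4D/D S-score cells, a log2 fold change of -1.26 ± 0.20 (SE, adjusted p = 0.0231). Hist2h2bb, an H2B gene (chr3:96269752-96270132), was at 19.9, 26.8, 35.1 and 18.5 CPM against 12.9, 11.8, 11.9 and 12.4 CPM, with -1.06 ± 0.19 (SE, adjusted p = 0.0423). Both were lower in Atf4D/D tumours without overlap between hosts. Since 2 histone genes took part in the selection, their values were also taken with a score that left those out, which gave -1.29 for Hist1h4d (adjusted p = 0.0309) and -0.97 for Hist2h2bb (adjusted p = 0.0732). Of 25 clustered histone genes outside the score that were tested, 22 had a negative fold change, against 5133 of all 10021 genes. Of the 25, 2 were called lower, where 0.0599% of all genes were called. Their median log2 fold change was -0.33, against a median of -0.01 for all genes. In other melanoma cells 22 of 33 such genes were negative, with a median of -0.07, against 6257 of all 12476 genes. The summed level of these histones in Atf4wt/wt replicate 4 was below that of every Atf4D/D tumour. Eno1b, a close copy of the glycolytic enolase gene Eno1, was at 8.22, 11.6, 12.1 and 5.22 CPM against 24.5, 23.6, 17.8 and 23.8 CPM, with 1.19 ± 0.19 (SE, adjusted p = 0.0231). Eno1, looked up likewise, had a log2 fold change of 0.39 ± 0.08 (SE, adjusted p = 0.0812). Ftl1-ps1, a ferritin light chain copy (chr13:74399694-74407346), was at 81.2, 89.2, 85.7 and 58.6 CPM against 138, 158, 116 and 127 CPM, with 0.72 ± 0.12 (SE, adjusted p = 0.0231), while Ftl1 had -0.02 ± 0.07 (SE, adjusted p = 0.954). With each tumour left out in turn, Pde10a passed in 8 of 8 fits, Nr4a3 and Hist1h4d in 7, Eno1b and Ftl1-ps1 in 5, and Hist2h2bb in 2. For Pde10a the highest adjusted p was 0.0247, and for Hist2h2bb, Eno1b and Ftl1-ps1 it was 0.139. Without Atf4D/D replicate 1 Pde10a was the 1 gene called, and without Atf4D/D replicate 3 the number called was 21. With the top 20% by score 4 genes were called higher and 1 lower, so at most 1 of the 4 lower calls held there. With at least 8000 UMIs per cell 1 gene was called higher and 3 lower.

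**Figure D5:**
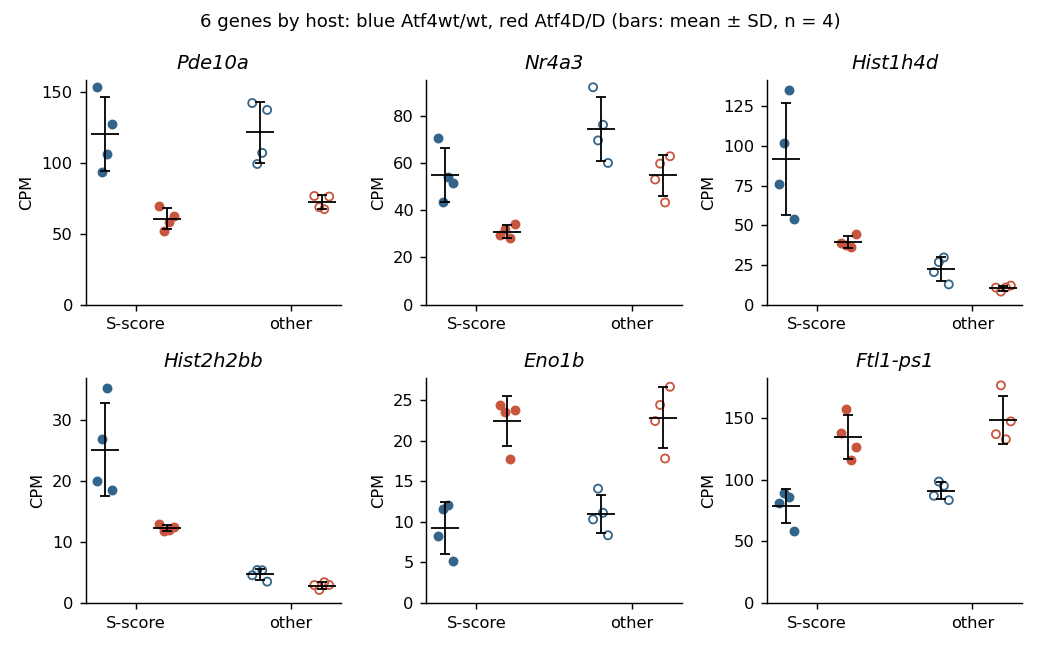
CPM (y axis) of the 6 genes called between hosts in S-score cells, 1 point per tumour, filled for S-score and open for other melanoma cells, blue for Atf4wt/wt and red for Atf4D/D hosts, with black bars for mean ± SD (n = 4). In S-score cells the 2 genotypes are separate for all 6, for example 93.5 CPM or more against 69.5 CPM or less for Pde10a.

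For replication genes, 1 boundary on a replication score chose the cells of all 8 tumours, so nothing is read from their values. How far that selection limits a difference between hosts was not tested. None of the 23 licensing, 29 fork, 14 nucleotide supply or 20 checkpoint and repair genes was called, against 0.0599% of all genes, and their median log2 fold changes were 0.0033, -0.01, -0.03 and -0.01. Among groups with larger medians were the interferon response, with 6 of 6 tested genes lower in Atf4D/D tumours and a median of -1.33, the integrated stress response, with 14 of 14 lower and a median of -0.25, and hypoxia, with 14 of 15 higher and a median of 0.21. Of all 10021 genes 5133 were lower. The p53 targets had 9 of 10 genes lower (median -0.19) and cohesion 7 of 8 (median -0.17). No gene of these 5 lists was called. Of the 7 fibroblast markers only Sparc (log2 fold change 0.02, adjusted p = 0.983) and Col3a1, a fibrillar collagen (2.01, adjusted p = 0.402), had enough UMIs to be tested, and of the 7 macrophage markers only Cd68 (0.36, adjusted p = 0.755). Summed fibroblast markers ran from 271 to 457 CPM in Atf4wt/wt and from 344 to 470 CPM in Atf4D/D S-score cells, and macrophage markers from 6.32 to 12.9 and from 5.79 to 13.9 CPM, with overlap in both. The part of host-cell RNA in the differences between hosts was not tested. Isg15, an interferon-induced ubiquitin-like protein, was at 35.7, 25.3, 82.1 and 93.1 CPM in Atf4wt/wt and 17.7, 48.5, 19.2 and 5.48 CPM in Atf4D/D S-score cells, with overlap between hosts (log2 fold change -1.42 ± 0.44 SE, adjusted p = 0.352). Atf4 was at 256, 388, 367 and 376 CPM against 251, 392, 382 and 269 CPM (-0.13 ± 0.14 SE, adjusted p = 0.836).

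The difference between hosts in S-score cells was set against that in the other melanoma cells of the same tumours, in 1 model with the tumour as a block. None of 11926 genes (0%) passed (edgeR, adjusted p under 0.05), none passed with DESeq2, and 631 had an unadjusted p under 0.05. In other melanoma cells alone, 0 of 12476 genes (0%) passed and 1342 had an unadjusted p under 0.05, and the called genes had log2 fold changes there of -0.79 for Pde10a, -0.49 for Nr4a3, -1.15 for Hist1h4d, -0.76 for Hist2h2bb, 1.01 for Eno1b and 0.66 for Ftl1-ps1, in each case in the direction seen in S-score cells. The differences between both sets of cells had adjusted p-values (edgeR) between 0.690 for Nr4a3 and 0.987 for Hist1h4d, so none of the 6 was shown to be particular to S-score cells. The 6 genes with the smallest p were Ccl5, a chemokine (difference of log2 fold changes -1.32, adjusted p = 0.0573), Saa3, an acute-phase protein (1.46, 0.139), Isg15 (-0.59, 0.139), Fkbp11, an ER prolyl isomerase (0.30, 0.139), Kcnj13, a potassium channel (1.45, 0.191), and Ddit3 (-0.32, 0.191). With a tumour left out in turn, Ccl5 ran from -2.25 without Atf4D/D replicate 2 to -0.9997 without Atf4D/D replicate 3 and passed in 3 of 8 fits, with adjusted p-values (edgeR) from 0.000196 to 0.515, and with the score without the 2 histone genes it was -0.79 (adjusted p = 0.555). Saa3 was at 0.85 without Atf4D/D replicate 1 and passed in 1 of 8, as did Ddit3, while Fkbp11 and Isg15 passed in 2 and Kcnj13 in none. The integrated stress response had a negative difference in 13 of 14 genes (median -0.18), against 5726 of 11926 genes overall. G2 and mitosis had 18 of 26 (median -0.07), macrophage markers 4 of 5 (median -0.92) and fibroblast markers 0 of 7 (median 0.69), and the part of those host-cell markers in the difference was not tested.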

How the data were processed

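Cells of 8 B16F10 tumours were sequenced with 1 10x 3′ library each. Per the labels the authors aligned to GRCm38 with Cell Ranger 3.1.0 and used Seurat 3.2.1, and the deposited values are counts, raw UMIs per gene and barcode. The members and the gene lists were chosen with earlier results of these data known. Cells were selected as stated with the report's opening (Python 3.11.15, numpy, scipy), and no doublet caller was run. UMIs were summed per tumour over S-score and over other cells. Values per tumour were compared by exact two-sided permutation tests, and genes with edgeR 4.0.16 (R 4.3.3, filterByExpr, TMM, quasi-likelihood, Benjamini-Hochberg), DESeq2 1.42.0 being an alternative. Ratios to other cells used 0.5 CPM added to both. Tested on simulated counts for the genotype comparison, edgeR recovered 100% of 200 genes changed by a log2 of 1, among 9919 genes. The changed genes were drawn from the better expressed ones, and the counts followed the spread fitted to the data. The simulation therefore sets no limit on the differences of genes that were not called. Libraries were grouped by the labels' genotype.

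Named were every score gene, members of each list with high levels or extreme ratios, the 15 highest and 10 lowest genes of at least 50 CPM with 1 sign in 8 tumours, genes past each test (up to 20) or the 6 with the smallest p, and Atf4. Nr4a1, Nr4a2, Eno1, Ftl1, Gm42418, Ptprc, Dcn and further genes of long lists were added after their values were seen. Gene positions came from GENCODE vM21, on GRCm38, and promoters from RefSeq. The floor behind a value of 0 covers counting error only, and p-values measure the spread between tumours. In the model with the tumour as a block, that spread is of the difference between S-score and other cells within a tumour. Some genes that the rule names are not reported here.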

Additional observations from a re-analysis of the deposited data

Results flagged for a closer look

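Of 48 groups of 4 tumours checked for a value far from the other 3 (Dixon's ratio past its 95% critical value), 6 stood out, where chance flags about 1 in 20. The median mitochondrial percent of S-score cells was 4.97 in Atf4wt/wt replicate 4 against 5.70 to 5.79 in the other 3 (ratio 0.895). Atf4 was at 256 CPM in Atf4wt/wt replicate 1 and between 367 and 388 CPM in the others (0.843). Among Atf4D/D tumours, Ccl5 was at 45.7 CPM in replicate 2 and at most 6.76 CPM in the others (0.875), and Kcnj13 at 13.2 CPM in replicate 2 against at most 4.53 CPM (0.974). Eno1b was at 17.8 CPM in replicate 3 against 23.6 CPM or more (0.865), and Saa3 at 28.0 CPM in replicate 1 against at most 4.05 CPM (0.908). Erythroid markers, at 26.4 CPM, were seen in S-score cells of that replicate 1 too.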

How the results depend on the processing

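The number of genes over 2-fold higher in S-score cells, 109, stayed between 89 and 116 under 9 alternatives, and of 441 alternative values of gene and list ratios 390 moved by less than 1 SD, with 1 change of sign, in macrophage markers (log2 ratio 0.054 with cells thinned to 4000 UMIs). No share, ratio or depth measure passed its test under any setting run. The smallest exact permutation p possible, before adjustment, is 0.0286 with all 8 tumours and also with a tumour left out. No stability is read from these tests. Directions turned between hosts (Atf4D/D minus Atf4wt/wt) for the share of G2/M-score cells, in percentage points, with thinning (0.076), a mitochondrial limit of 15% (0.34), no upper limit on genes (0.12) and the top 20% (0.61); for the share of S-score cells (0.87) and the log2 ratio of the S-score to the G2/M-score share (0.11) with the score without the 2 histone genes; for the members' median mitochondrial percent with thinning (-0.016), the 15% limit (-0.10) and the top 20% (-0.032); and for the percent of members also in the G2/M group with the top 20% (0.86).

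With 1 tumour left out in turn, the difference lay between -1.66 and -0.55 for the S-score share, 0.86 and 2.74 for the G1/S-score share, -0.50 and 0.46 for the G2/M-score share, -0.50 and -0.30 for the log2 S to G1/S ratio, -0.21 and -0.09 for the log2 S to G2/M ratio, 479.2 and 1531 for the median UMIs per cell, 146.2 and 289.5 for the median genes per cell, -0.15 and 0.16 for the median mitochondrial percent, 3.61 and 8.17 for the percent of members also in the G1/S group, -4.11 and -1.20 for the percent of members also in the G2/M group, -164.5 and -48.5 for the summed CPM of other clustered histones. The number of genes called between hosts in S-score cells was 6, and 4 to 9 in 8 other settings, but 12 with melanoma markers at least 1% of UMIs, 10 with the top 5% by score, 25 with DESeq2, 191 with no filter on low counts and between 1 and 21 with a tumour left out (1 without Atf4D/D replicate 1; 12, 10, 12 and 21 without Atf4wt/wt replicates 2 and 4 and Atf4D/D replicates 2 and 3). Against other cells it was 0, but 12 with no filter and between 0 and 9 with a tumour left out (3 without Atf4wt/wt replicate 1 or 2, 9 without Atf4D/D replicate 2), and, in alternatives chosen after seeing the data, 5 with thinning, 1 with no upper limit on genes, 1 with at least 8000 UMIs, 2 with the top 20% and 1 with the score without the 2 histone genes; Saa3 turned to -0.046 with at least 8000 UMIs, -0.21 with the top 5% and -0.00064 without the 2 histone genes. By direction, the main setting called 2 genes higher and 4 lower in Atf4D/D S-score cells. The top 20% called 4 higher and 1 lower, and at least 8000 UMIs per cell 1 higher and 3 lower. The genes called were therefore not the same in these settings. Where the causes are not in a setting's construction, the cause was not tested.

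Tumours of the same replicate number had correlations of deviations of -0.0004, -0.15, -0.09 and -0.13, and those of different numbers from -0.12 to 0.15. Whether a number stands for shared handling cannot be told from these. With the replicate number as a block, 16 genes were called, and a sign-flip test of 4 same-number differences, which cannot go below 0.125, called no share. Depth limits the genes with few UMIs, and the fewest S-score cells of a tumour were 215, in Atf4wt/wt replicate 4.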
